A study of Mus musculus with 768 samples.

Results

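The 9 genes described here are chemokine, interferon-induced and major histocompatibility complex (MHC) genes measured in single Schwann cells, the glia of peripheral nerve. They are Cxcl1, Cxcl10, Ifitm3, Ifitm2, Isg15, B2m, H2-K1, H2-D1 and H2-DMa, and they were found by gene identifier among the 25700 genes of the count table, of which 17124 had at least 1 read. Cxcl1, Cxcl10 and H2-DMa had been leading genes of cell clusters in an earlier analysis of these cells, so their levels by state are given as a description with no test. The other 6 were chosen by name with earlier results of these data known.

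Cells came from sciatic nerves of P0Cre -/+ : ReYFP Tg/+ : βAct-DsRed Tg/+ mice on the C57bl/6J background at postnatal day 5. Cre under the P0 promoter switched on yellow fluorescent protein in the Schwann cell lineage, and the sort kept fluorescent cells, so any other cell in which Cre had acted would pass the gate too. Every cell analysed here carried these alleles and none was treated, so the comparisons are between states of cells and not between genotypes or treatments. Cells of males and females were pooled for each of 2 plates of 384 wells, 1 cell per well, and the plate is the only replicate (n = 2).

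Wells with at least 1500 detected genes outside the 4 plate corners were retained, 325 in plate 1 and 330 in plate 2. Their median depth was 593534 and 559286 reads. A well was called cycling when it had 5 or more reads in at least 3 of 10 cell cycle genes. Other wells were called immature below 10 CPM of Ncmap (reads per 1000000 reads of the well), intermediate from 10 CPM of Ncmap but below 30000 CPM of Pmp22, and myelinating above both. Ncmap and Pmp22 encode myelin membrane proteins. This gave 32 and 25 cycling, 106 and 122 immature, 79 and 70 intermediate, and 108 and 113 myelinating wells in plates 1 and 2. Near the limits, 12 of 598 wells lay between 5 and 20 CPM of Ncmap and 33 of 370 between 25000 and 35000 CPM of Pmp22. With the Pmp22 limit at 20000 CPM, 59 and 52 wells were intermediate in plates 1 and 2, and at 40000 CPM 100 and 84. For the cycling rule, 21 of 655 wells had 2 of the cell cycle genes and 4 had 3, and no alternative changed that rule. The states differed in depth, with medians of 583889, 450307.5, 517142 and 765668 reads in the order given. Each share of wells was therefore also computed in the 589 wells that could be thinned to 200000 reads.

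The cell type of the wells was checked against markers. Of 655 retained wells, 563 had 5 or more reads of at least 3 of 6 genes of all Schwann cells. No well reached that for 16 immune genes, which allows a share of up to 0.458% of wells. Of the immune genes 11, among them Ptprc, Aif1, Cx3cr1, Adgre1, Lyz2 and Cd3e, had 0 reads, and the summed level of the list was between 2.94 and 23.1 CPM in the 8 sums. For 6 fibroblast-like markers 21 wells passed, and their summed level fell with state. It was 2415 and 3512 CPM in cycling, 2247 and 2517 in immature, 1138 and 883 in intermediate, and 283 and 303 in myelinating wells of plates 1 and 2. Most of the sum was from the collagens Col1a1 (146 to 1016 CPM in the 8 sums) and Col3a1 (132 to 2468 CPM). Dcn, Lum, Pdgfra and Cd34 reached at most 28.7, 13.1, 0.963 and 0.0203 CPM. Which cells made the collagen reads was not tested. The differences called below were therefore also computed without those 21 wells. Endothelial and pericyte lists passed in 0 wells each, with 5 of 8 and 3 of 7 genes at 0 reads. For the states, 6 markers of immature Schwann cells passed in 295 wells and 7 of myelinating Schwann cells in 615. By presence these markers thus crossed states. The 7, which include Ncmap and Pmp22, summed to 7576 and 8105 CPM in immature and 131365 and 130142 in myelinating wells. The 6 summed to 4720 and 4305 CPM against 216 and 118.

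Chemokines are small secreted proteins that draw leukocytes. Cxcl1 acts on neutrophils and is a target of NF-kB. Cxcl10 draws activated T cells and is induced by interferon. Interferons signal through receptors to transcription factors that bind interferon-stimulated response elements and turn on antiviral genes such as Isg15 and the Ifitm family. The same signals raise MHC class I, in which a heavy chain such as H2-K or H2-D pairs with beta-2 microglobulin to present peptides from inside the cell. MHC class II, loaded with the help of the H2-DM heterodimer, is typical of professional antigen-presenting cells.

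The promoters were read first, to see which of the 9 genes match the letters searched for such elements. RefSeq promoter windows (GRCm38.p6, from 250 bases before to 50 bases after the start site) were searched on both strands for the letters GAAANNGAAA (interferon-stimulated response element), GGGNNTTTCC (kB element) and TTCNNNGAA (gamma-activated site). The interferon element was found for 5 of the 9 genes, namely Cxcl10, Ifitm3, Ifitm2, Isg15 and B2m, against 3.44% of all 32851 promoters. The kB element in these letters was found for Cxcl1 and B2m, against 1.63% of all promoters. Other spellings of it were not searched, so a gene without a match may still carry one. The Cxcl10 stretch below holds gggaaattcc, which the letters searched miss. The gamma-activated site was found once, in Ifitm3, against 8.30% of promoters. Windows of H2-K1 (2 promoters), H2-D1 (1) and H2-DMa (2) held none of these letters, which says nothing of the factors.

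The stretches below hold those matches and are shown 5′ to 3′ on the strand of the gene, with matches to the interferon or kB element in capitals. Isg15 carried 3 overlapping interferon elements starting at -78, -72 and -66, and Cxcl1 carried kB matches at -89, on the other strand, and at -71. B2m held an interferon element at -139 next to a kB match on the other strand at -126. Ifitm2 matched at -46 and Cxcl10 at -213. For Ifitm3 both matches, at 3 and 20, lay just after the RefSeq start, so its first 30 transcribed bases are shown.
Isg15, chr4:156200819-156200918, minus strand: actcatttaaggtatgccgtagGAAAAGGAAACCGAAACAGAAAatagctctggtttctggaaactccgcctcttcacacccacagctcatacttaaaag
Ifitm3, chr7:141010715-141010744, minus strand: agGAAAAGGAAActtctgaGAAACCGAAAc
Ifitm2, chr7:140955962-140956061, minus strand: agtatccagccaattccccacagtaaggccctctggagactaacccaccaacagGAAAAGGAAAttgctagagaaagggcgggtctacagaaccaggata
B2m, chr2:122147537-122147636, plus strand: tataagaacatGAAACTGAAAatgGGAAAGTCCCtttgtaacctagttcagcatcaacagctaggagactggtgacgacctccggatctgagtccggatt
Cxcl1, chr5:90891145-90891244, plus strand: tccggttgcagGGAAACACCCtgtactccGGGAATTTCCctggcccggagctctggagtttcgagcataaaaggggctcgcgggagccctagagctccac
Cxcl10, chr5:92349020-92349119, minus strand: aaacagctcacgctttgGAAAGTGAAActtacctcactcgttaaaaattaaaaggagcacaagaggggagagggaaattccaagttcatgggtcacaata
A match is only a match of letters, and the genes with one differed widely in how many cells held them.

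Among the 9 genes, B2m was present in nearly every cell, Ifitm2 in most, and both chemokines and Isg15 in few. Per kilobase of exon, the mean level in immature wells was 1768 CPM for B2m, 410 for Ifitm2, 271 for Ifitm3 and 78.3 for H2-D1. Cxcl10 (66.8), Cxcl1 (51.9) and H2-K1 (34.9) followed, and H2-DMa (3.61) and Isg15 (3.38) were last. In myelinating wells the order was B2m (1032 CPM per kilobase), Ifitm2 (122), H2-DMa (79.9), H2-D1 (13.7), H2-K1 (11.1), Cxcl1 (7.59), Isg15 (2.06), Cxcl10 (1.60) and Ifitm3 (0.267). The place of Cxcl1 rests on plate 1 in both states, since in plate 2 it had 0 reads in myelinating wells and was below H2-K1 in immature wells. H2-DMa thus stood among the last in immature and among the first in myelinating wells, and Ifitm3 moved the other way. A well held a median of 3 of the 9 genes with 5 or more reads (range 0 to 7), and the median was 2 in intermediate wells.

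**Figure D1:**
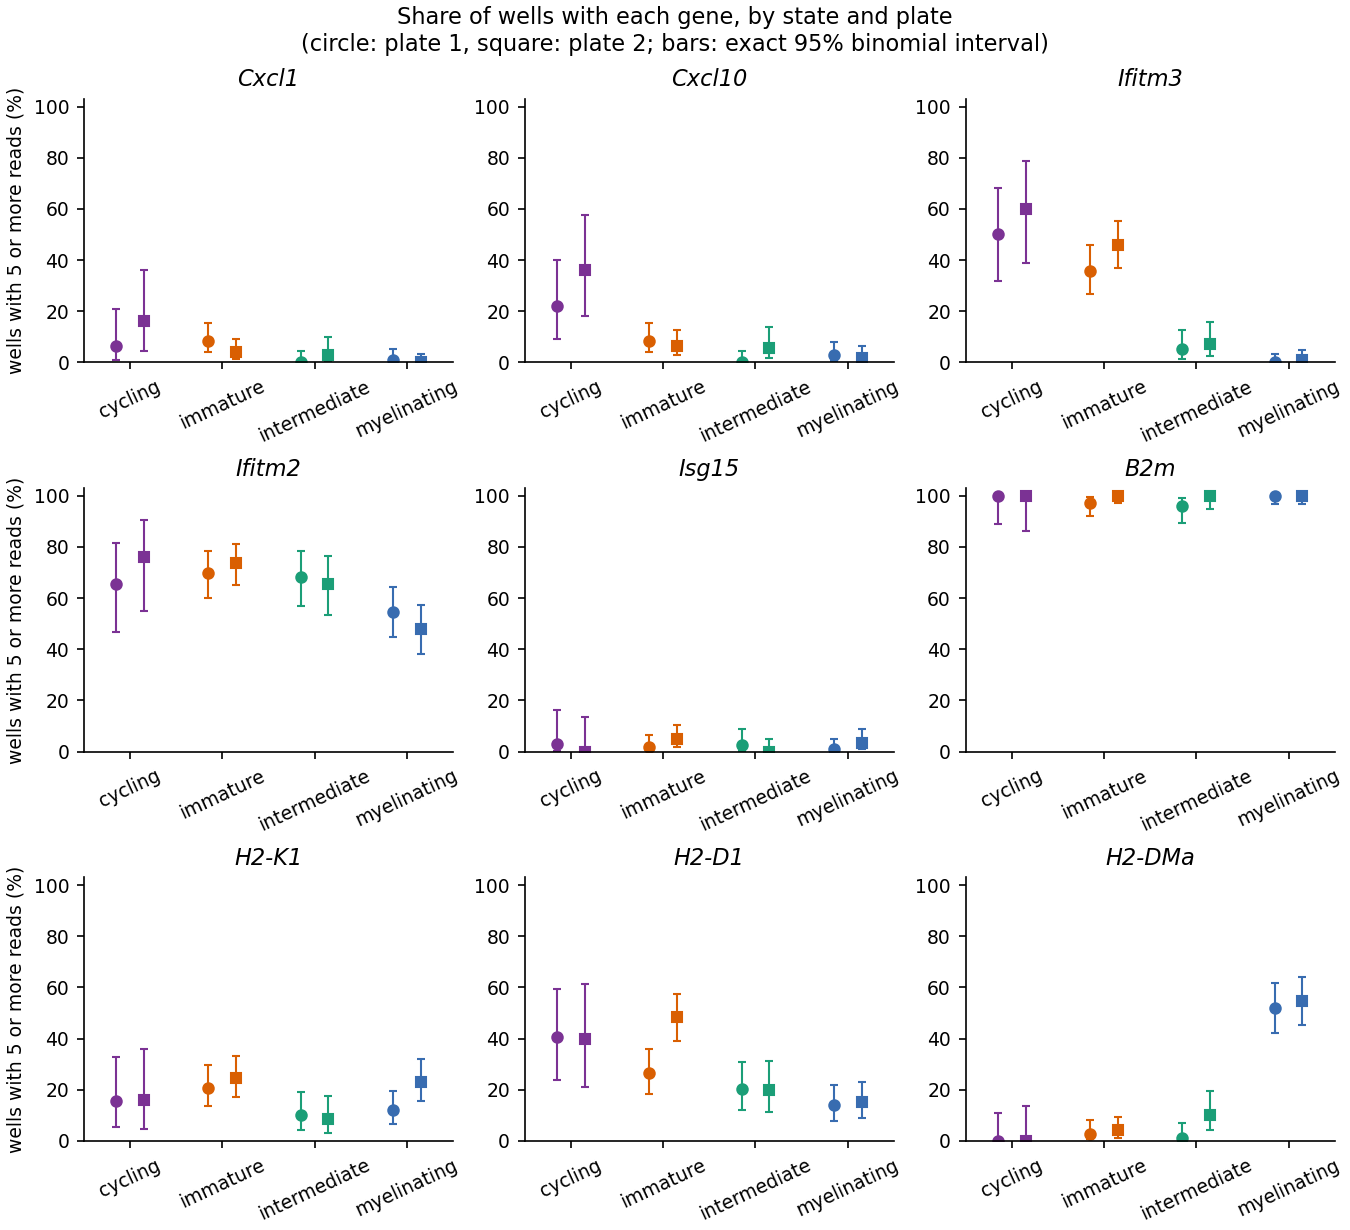
Share of wells with 5 or more reads of each gene, in percent, in the 4 states; circles are plate 1, squares plate 2, and bars are exact 95% binomial intervals that cover counting error only. Ifitm3 falls from 16 of 32 and 15 of 25 cycling wells (plates 1 and 2) to 0% and 0.885% of myelinating wells, and H2-DMa is at 51.9% and 54.9% in myelinating wells and at 10% or less in the other states.

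Cxcl1 (ENSMUSG00000029380, chr5:90891241-90893115, plus strand, GENCODE vM21 on GRCm38) was found with 5 or more reads in 23 of 655 wells. These were 2 and 4 cycling, 9 and 5 immature, 0 and 2 intermediate and 1 and 0 myelinating wells in plates 1 and 2. The level in summed reads was 2.72 and 51.1 CPM in cycling, 176 and 18.2 in immature, 0 and 4.40 in intermediate, and 28.5 and 0 in myelinating wells. Cells without the gene were the rule in every state, and a few cells with much of it set each level. Positive immature wells ranged from 40.5 to 9573 CPM (median 764). Over all wells the 5 highest held 81.8% of all Cxcl1 reads, and in myelinating wells 1 well held 99.9%. The plates therefore gave no common order of levels: cycling was above immature in plate 2 and below it in plate 1. Shares in thinned wells were close, 5.08% against 6.14% in immature wells.

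Cxcl10 (ENSMUSG00000034855, chr5:92346638-92348889, minus strand) was found in 42 wells. The share was highest among cycling cells, 7 of 32 and 9 of 25 wells in plates 1 and 2, or 28.9% ± 9.99 (SD, n = 2 plates). It was 8.49% and 6.56% in immature, 0% and 5.71% in intermediate, and 2.78% and 1.77% in myelinating wells. In thinned wells, cycling and immature shares were 25.5% and 7.11%. Both plates put cycling cells above the other 3 states by share. By level they did not: cycling and immature wells held 48.5 and 207 CPM in plate 1 but 237 and 93.7 in plate 2. Intermediate wells held 0.0427 and 45.1 CPM, and myelinating wells 3.02 and 4.17. Positive wells ranged from 14.3 to 13090 CPM (median 296), and the 5 highest wells held 58.9% of the reads. Cxcl10 lies inside Art3, a gene on the other strand that had 5 or more reads in 644 wells. Strand-specific counting is not stated, so reads of the overlap cannot be told apart. All 42 Cxcl10 wells were also Art3 wells, as were 98.2% of the others.

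Ifitm3 (ENSMUSG00000025492, chr7:141009586-141010770, minus strand), which keeps viruses from entering the cell at endosomes, was common in cycling and immature cells and nearly absent from myelinating ones. It was found in 16 of 32 and 15 of 25 cycling wells and in 38 of 106 and 56 of 122 immature wells, or 55.0% ± 7.07 and 40.9% ± 7.11 (SD, n = 2). Among intermediate wells it was found in 4 of 79 and 5 of 70, or 6.10% ± 1.47. Only 1 of 221 myelinating wells had it, at 13.6 CPM, and 0 of 108 in plate 1 allows a share of up to 2.78%. With at least 1 read instead of 5, shares were 57.9%, 49.1%, 16.1% and 9.05% in cycling, immature, intermediate and myelinating wells of both plates. In thinned wells the shares were 52.9%, 40.1%, 5.43% and 0% in the same order, so the order was the same at equal depth. The level was 177 and 140 CPM in cycling, 166 and 201 in immature, 5.65 and 14.8 in intermediate, and 0.122 and 0.241 in myelinating wells of plates 1 and 2. Values of the immature wells lay above both intermediate values, and those above both myelinating values.

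Differences between states were tested on reads summed by plate and state (8 sums) with edgeR's quasi-likelihood test over 13904 genes, with Benjamini-Hochberg adjustment and a threshold of 0.05. Of the 6 tested genes, 1 was lower in intermediate than in immature wells, where 2.00% of all genes passed (0.985% as higher, 1.01% as lower). From immature to myelinating wells 3 were lower, where 5.14% of all genes passed (2.60% as higher, 2.54% as lower). From intermediate to myelinating wells 1 was lower, where 0.784% passed (0.360% as higher, 0.424% as lower). Between cycling and immature wells 0 passed, where 2.58% of all genes did (1.29% as higher and 1.29% as lower). At an unadjusted p under 0.05 the 6 genes gave 4, 5, 3 and 2 in these comparisons, against 11%, 16.3%, 9.36% and 15.4% of all genes, and DESeq2 called 3, 3, 1 and 0. Ifitm3 passed in each of the other 3 comparisons.

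For Ifitm3 the log2 difference was -4.04 (SE 0.507, edgeR adjusted p 0.00522) from immature to intermediate wells and -9.60 (SE 0.663, adjusted p 7.49e-05) from immature to myelinating wells. From intermediate to myelinating wells it was -5.56 (SE 0.570, adjusted p 0.00293). Within plates, ratios of CPM with 0.5 CPM added gave -4.76 and -3.72 from immature to intermediate and -8.06 and -8.09 from immature to myelinating wells. Between cycling and immature wells it was -0.11 (SE 0.448, adjusted p 0.954), and the plates went opposite ways (0.09 and -0.52). Without the 21 wells with fibroblast-like markers, the first 3 differences were -4.02, -9.57 and -5.56, with adjusted p of 0.00594, 9.05e-05 and 0.00348. All 3 kept their call under each of 13 alternatives, with values from -9.75 to -3.31.

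**Figure D2:**
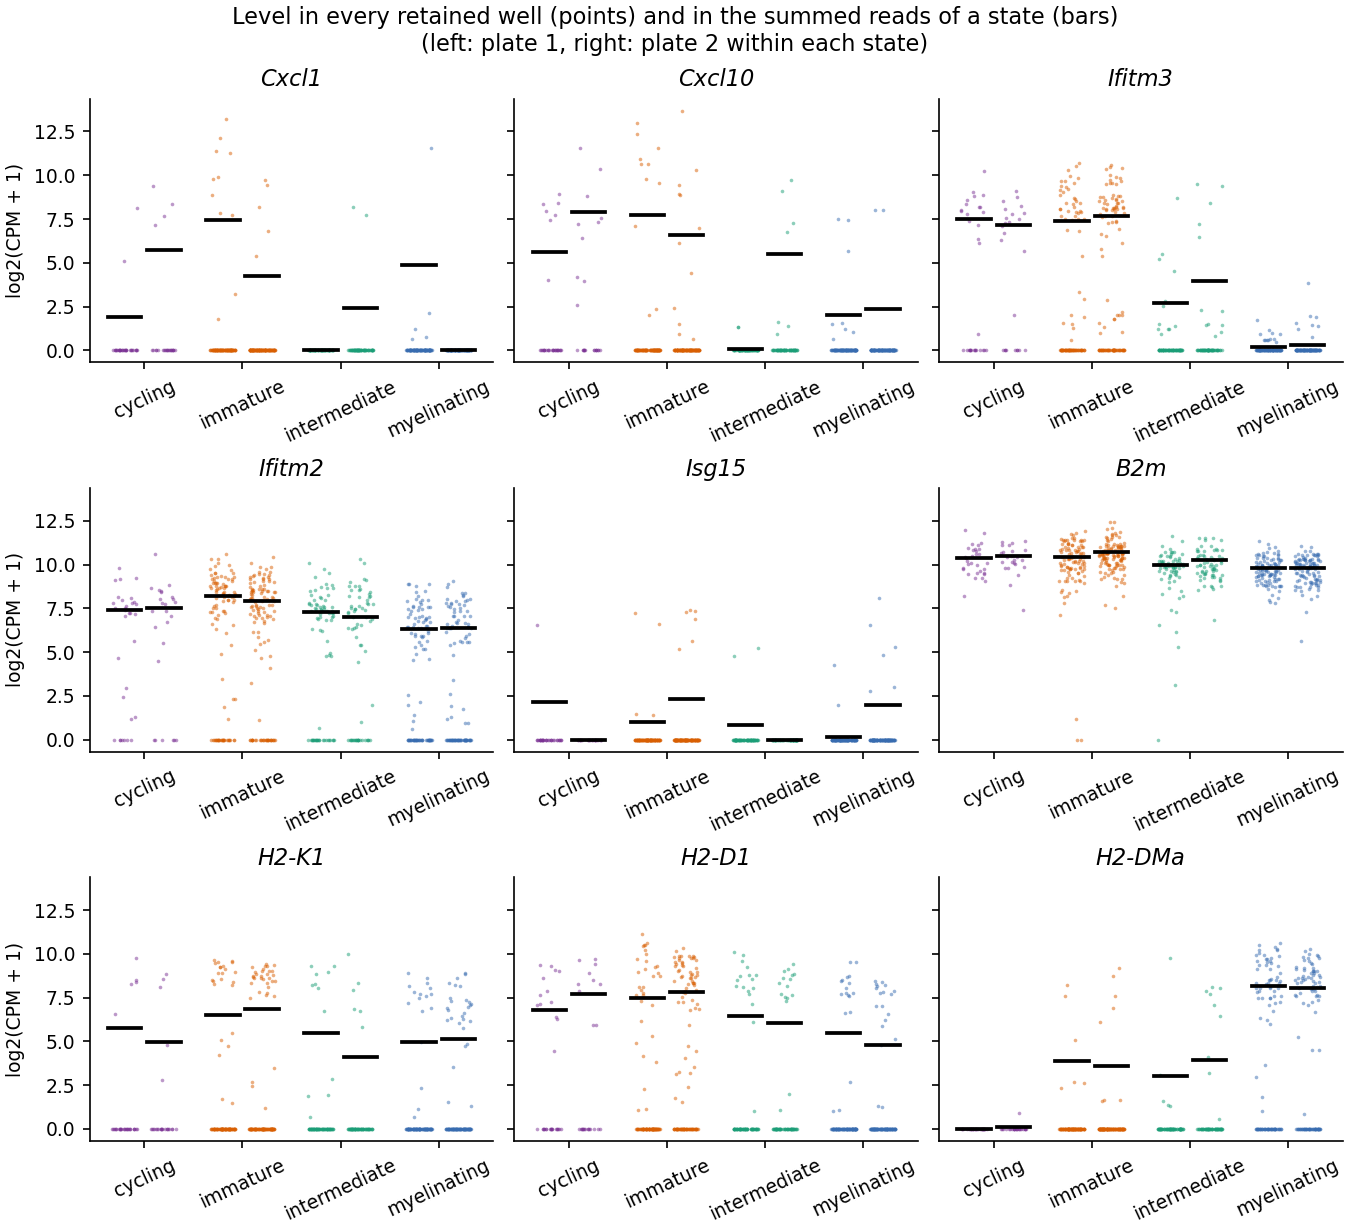
Level of each gene as log2(CPM + 1) in every retained well (points) and in the summed reads of each state (black bars), with plate 1 to the left and plate 2 to the right within a state. Ifitm3 points leave the upper band between immature and myelinating wells, H2-DMa points enter it in myelinating wells, and B2m forms 1 band in all 4 states.

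Ifitm2 (ENSMUSG00000060591, chr7:140954837-140955987, minus strand), a neighbour and close relative of Ifitm3, did not share that course. It was found in 417 wells, 65.6% and 76% of cycling, 69.8% and 73.8% of immature, 68.4% and 65.7% of intermediate, and 54.6% and 47.8% of myelinating wells. The level was 168 and 181 CPM in cycling, 294 and 244 in immature, 158 and 128 in intermediate, and 78.0 and 82.3 in myelinating wells. The highest values were thus those of immature cells and the lowest those of myelinating cells, with no overlap between the 2 states. The log2 difference from immature to myelinating wells was -1.36 (SE 0.222, edgeR adjusted p 0.00816), against -9.60 for Ifitm3. It did not pass from immature to intermediate (-0.77, adjusted p 0.161; DESeq2 0.0368), from intermediate to myelinating (-0.59, adjusted p 0.412) or from immature to cycling wells (-0.52, adjusted p 0.305). The difference between the 2 genes was not tested.

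Counting bears on Ifitm2 in more than one way. The gene model Gm45717 overlaps it on the same strand. All 413 wells with 5 or more reads of Gm45717 also had Ifitm2, its reads came to 71.7% of those of Ifitm2, and its level followed that of Ifitm2 over wells (Spearman rho 0.99 in both plates). The coding sequences of Ifitm2 and Ifitm3 aligned with 330 of 435 positions identical (75.9%). Of 50-base stretches of the Ifitm2 transcript, 48.5% also occurred in another annotated gene, Gm45717 first, and so did 63 of 629 such stretches of Ifitm3. The most alike 90 coding bases of the pair, shown with their 4 differences in capitals, are shown because a read within them could fall to either gene.
Ifitm2, coding bases 130 to 219: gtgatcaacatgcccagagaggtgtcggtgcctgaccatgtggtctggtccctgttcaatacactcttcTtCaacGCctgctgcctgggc
Ifitm3, coding bases 133 to 222: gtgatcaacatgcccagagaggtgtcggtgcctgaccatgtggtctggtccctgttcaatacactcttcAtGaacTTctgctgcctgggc
Of the 417 Ifitm2 wells, 105 also held Ifitm3.

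Isg15 (ENSMUSG00000035692, chr4:156199424-156200818, minus strand), a ubiquitin-like protein and a standard readout of interferon signalling, was rare. It was found in 6 of 325 and 10 of 330 wells, 8 of them immature, 5 myelinating, 2 intermediate and 1 cycling. Its level was 3.52 and 0 CPM in cycling, 1.04 and 4.07 in immature, 0.789 and 0 in intermediate, and 0.132 and 2.98 in myelinating wells. Values of the states overlapped, except that both immature values were above both intermediate ones, and no comparison passed (adjusted p from 0.889 to 0.984). The gene with 3 overlapping interferon elements was thus the one found in the fewest wells. With standard errors of 2.80 to 2.97 log2 units, a difference between states was not detectable at this depth unless large.

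B2m (ENSMUSG00000060802, chr2:122147686-122153083, plus strand), the shared light chain of MHC class I, was found in 649 of 655 wells. The 6 wells without it were 3 immature and 3 intermediate wells of plate 1, with a median of 360111 reads and 2071.5 genes against 583889 reads and 3511 genes in the rest. Its level was 1332 and 1432 CPM in cycling, 1372 and 1670 in immature, 1001 and 1209 in intermediate, and 891 and 883 in myelinating wells. Immature values lay above all intermediate and myelinating ones. After TMM scaling the log2 difference from immature to myelinating wells was -0.39 (SE 0.147, edgeR adjusted p 0.216), and it did not pass. Plain CPM ratios within plates gave -0.62 and -0.92. CPM is a share of all reads, and Pmp22 alone took a mean of 66470 CPM in myelinating and 2449 CPM in immature wells. The part of Pmp22 reads in the values of B2m was not tested. The other comparisons of B2m lay between -0.32 and -0.03 (adjusted p from 0.474 to 0.989), and that of cycling with immature wells turned to 0.05 with DESeq2's size factors.

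The heavy chains were found in fewer wells than the light chain, H2-D1 in 172 and H2-K1 in 114. H2-D1 (ENSMUSG00000073411, chr17:35262730-35267499, plus strand) was found in 40.6% and 40% of cycling, 26.4% and 48.4% of immature, 20.3% and 20% of intermediate, and 13.9% and 15% of myelinating wells. The level was 111 and 204 CPM in cycling, 175 and 229 in immature, 87.7 and 64.6 in intermediate, and 43.7 and 27.1 in myelinating wells. The myelinating values were the lowest 2 of the 8, and cycling and immature values overlapped. From immature to myelinating wells the log2 difference was -2.13 (SE 0.391, edgeR adjusted p 0.0149), and without the wells with fibroblast-like markers it was -2.14 (adjusted p 0.0230). From immature to intermediate wells it was -1.27 and did not pass (adjusted p 0.189; DESeq2 0.0315). The immature share is where the plates of H2-D1 differed most, 28 of 106 against 59 of 122 wells, and in thinned wells it was 21.1% and 46.7%.

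H2-K1 (ENSMUSG00000061232, chr17:33996017-34000347, minus strand) was found in 15.6% and 16% of cycling, 20.8% and 24.6% of immature, 10.1% and 8.57% of intermediate, and 12% and 23% of myelinating wells. Its level was 54.3 and 30.1 CPM in cycling, 91.1 and 114 in immature, 44.3 and 16.5 in intermediate, and 30.7 and 34.6 in myelinating wells. Both immature values were above the other 6, which overlapped with each other. None of the 4 differences passed the test: the log2 difference was -1.61 from immature to intermediate (adjusted p 0.239) and -1.27 from immature to myelinating wells (adjusted p 0.262). Its difference of 0.34 from intermediate to myelinating wells (adjusted p 0.966) turned to -0.09 in thinned wells. H2-K1 and H2-D1 are 88.3% identical over their aligned coding sequence, and their best 90 bases are the same. Of 50-base stretches, 8.79% of the H2-K1 and 14.3% of the H2-D1 transcript recur in other genes. H2-Q1 had 5 or more reads in 78 wells, all of them H2-D1 wells, and its reads came to 2.58% of those of H2-D1, so the values of these heavy chains are uncertain where reads fall on shared sequence.

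**Figure D3:**
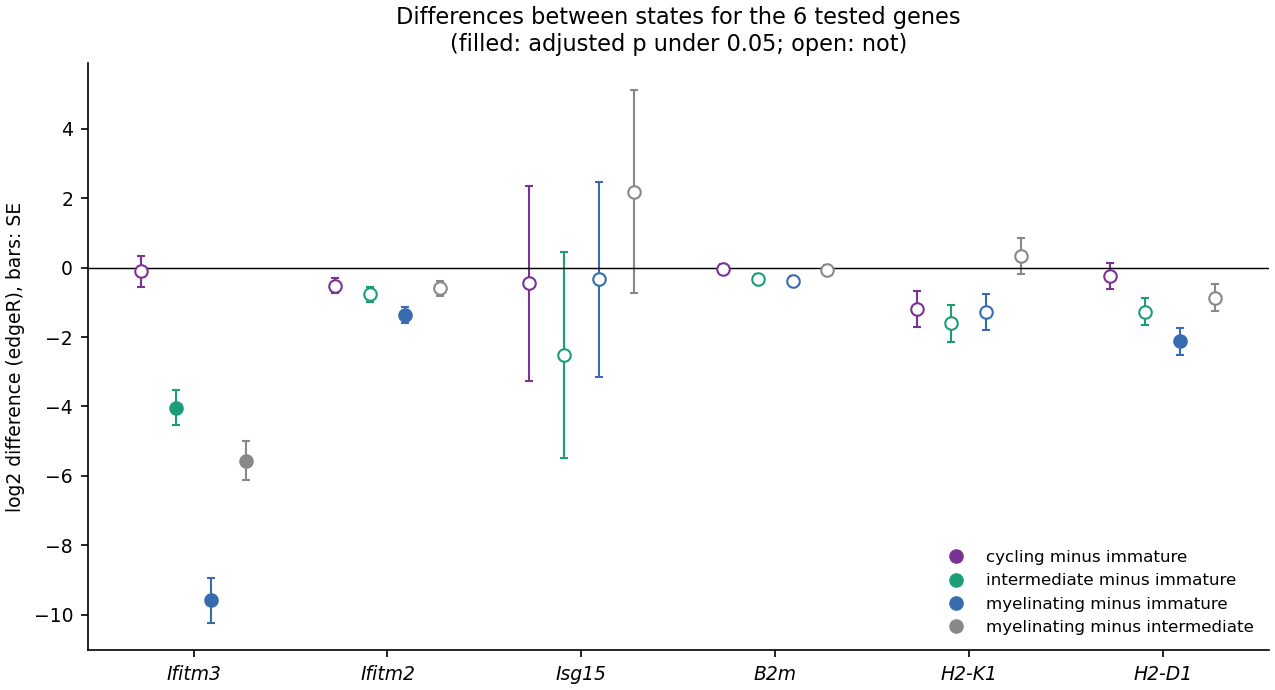
Log2 differences between states from edgeR for the 6 tested genes, with bars of 1 standard error; filled points have an adjusted p under 0.05. Filled points number 5, the 3 of Ifitm3 at -4.04, -9.60 and -5.56 and those of Ifitm2 (-1.36) and H2-D1 (-2.13) from immature to myelinating wells.

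H2-DMa (ENSMUSG00000037649, chr17:34119541-34139101, plus strand) encodes the alpha chain of H2-DM, which loads peptides onto MHC class II. It went against the other MHC genes: 56 of 108 and 62 of 113 myelinating wells had it, 53.4% ± 2.13 (SD, n = 2). Among immature wells 3 of 106 and 5 of 122 had it, and among intermediate wells 1 of 79 and 7 of 70. None of 57 cycling wells had it, which allows a share of up to 5.26%. The level was 291 and 261 CPM in myelinating wells, 13.9 and 11 in immature, 7.12 and 14.2 in intermediate, and 0 and 0.0718 in cycling wells. Myelinating values stood above all others, and immature and intermediate values overlapped. Thinning left the shares at 53.3% in myelinating and 3.55% in immature wells. Positive myelinating wells ranged from 6.74 to 1590 CPM (median 364), and the highest 5 held 19.8% of the reads, so the level did not rest on a few cells. H2-DMa overlaps Brd2 on the other strand, and Brd2 was found in 43.3% of wells with and 40.1% of wells without H2-DMa. Whether reads of the overlap were counted for H2-DMa was not tested. The summed endothelial markers were at 123 and 95.8 CPM in myelinating, 40.3 and 96.7 in intermediate, 27.9 and 36.5 in immature, and 14.8 and 0.934 in cycling wells, with Pecam1, Cdh5, Tie1, Tek and Emcn at 0 reads in all wells. Of 2 tested genes of that list, Kdr passed as higher in myelinating than in immature wells with edgeR, against 2.60% of all genes. Kdr was not called with the plate as a block. The part of these markers in the values of H2-DMa was not tested.

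The beta chain of the same dimer, H2-DMb1, had 5 or more reads in 85 wells, and 83 of them were myelinating. It was at 145 and 150 CPM in myelinating wells, against 0.0185 and 0.0501 in immature, 13.6 and 0.0721 in intermediate, and 0.0503 and 0 in cycling wells, and it was higher in myelinating than in immature wells (edgeR adjusted p 0.0134). Both chains were found in 59 wells, all myelinating, 24 in plate 1 and 35 in plate 2. The product of the shares within each state gave 16.6 and 28.0 wells. Of wells with H2-DMa, 59 of 118 myelinating ones had H2-DMb1 too, and 24 had H2-DMb1 without H2-DMa. The class II molecules that H2-DM serves were rare. H2-Aa had 0 reads, Cd74 reached 5 reads in 1 well, H2-Eb1 in 11 and H2-Ab1 in 20, and H2-Ab1 lay between 0 and 19.8 CPM in the 8 sums. Ciita, the regulator of class II genes, reached 5 reads in 5 wells. Of 15 measured class II genes, 5 besides H2-DMa could be tested, and H2-DMb1 was the 1 that passed from immature to myelinating wells. In each of the other 3 comparisons 0 passed with edgeR, 2 had an unadjusted p under 0.05, and DESeq2 called 1 or 2.

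**Figure D4:**
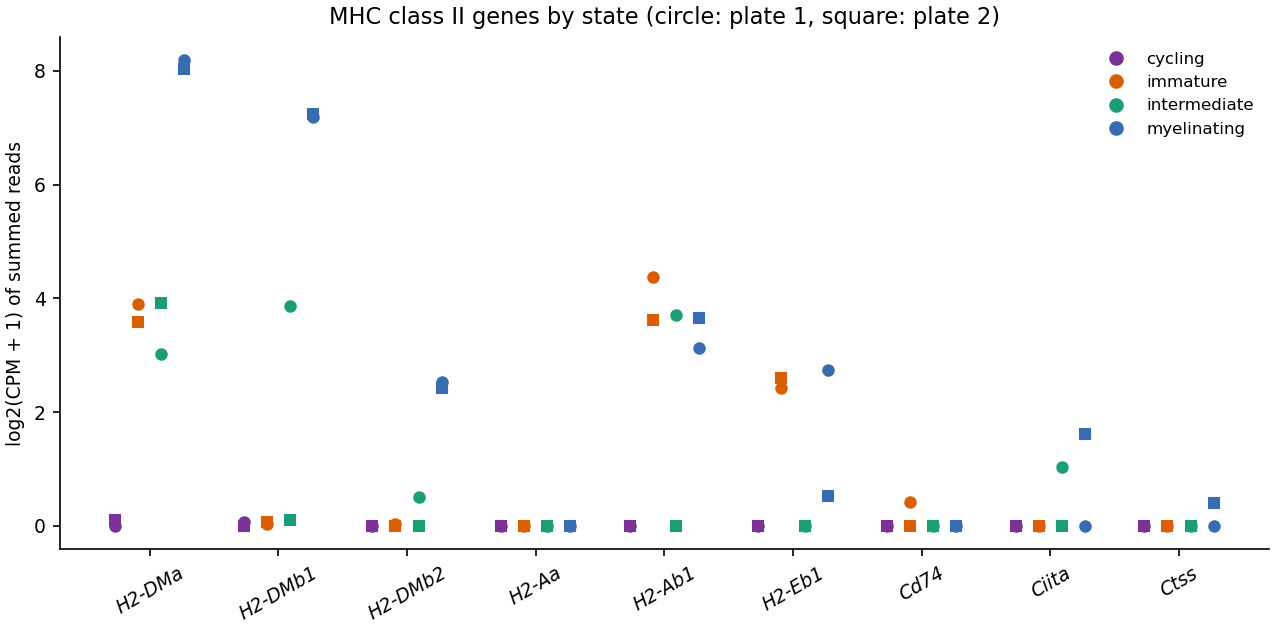
Level of 9 MHC class II genes in the summed reads of each state as log2(CPM + 1), circles for plate 1 and squares for plate 2. H2-DMa and H2-DMb1 stand high in myelinating wells of both plates, at 145 CPM or more, whereas H2-Aa, Cd74 and Ctss lie at or near 0 in every state.

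Co-detection was counted over the 36 pairs of the 9 genes in wells with 5 or more reads of both. The count was set beside the product of the shares within each plate and state, so that a pair does not stand out only because both genes mark 1 state. The product is what unrelated genes would give on average if the wells of a state were alike. They were not alike in depth, which ran from 3306 to 2173454 reads in immature wells. Counts in thinned wells are given below, and the part of other differences within a state was not tested. In 12 pairs the count was above the product in both plates, and in 2 it was below in both. Pairs with B2m could be in neither group, because all 330 wells of plate 2 held B2m and the count there equals the product. How many pairs of unrelated genes would lie above in both plates was not tested. Most differences from the product were a few wells. Ifitm3 and Cxcl1 were found together in 14 wells (6 and 8) against 9.06 from the product, so 60.9% of Cxcl1 wells held Ifitm3. Wells with Cxcl1 were shallower than others, with medians of 336845 against 589049 reads. Ifitm3 and Ifitm2 met in 105 wells against 96.2, Ifitm3 and H2-K1 in 33 against 27.6, and H2-K1 and H2-D1 in 36 against 32.5.

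The 2 chemokines were found together in 4 wells (2 in each plate), against 3.11 from the product, so most Cxcl1 cells lacked Cxcl10. Cxcl10 and Ifitm3 met in 17 wells against 16.1. Ifitm3 and H2-DMa, which mark opposite states, met in 4 of the 135 Ifitm3 wells, against 4.47 from the product, so within states they were found together about as often as the product gives. Ifitm2 and H2-DMa met in 82 wells against 71.3. Isg15 was too rare for its pairs to be read, with 1 to 5 joint wells apart from Ifitm2 (9) and B2m (16). With 1, 10 or 5 reads in thinned wells, the pairs above the product in both plates numbered 12, 17 and 9. At 10 reads B2m was found in 99.4% of plate 2 wells, so there its pairs could count too.

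**Figure D5:**
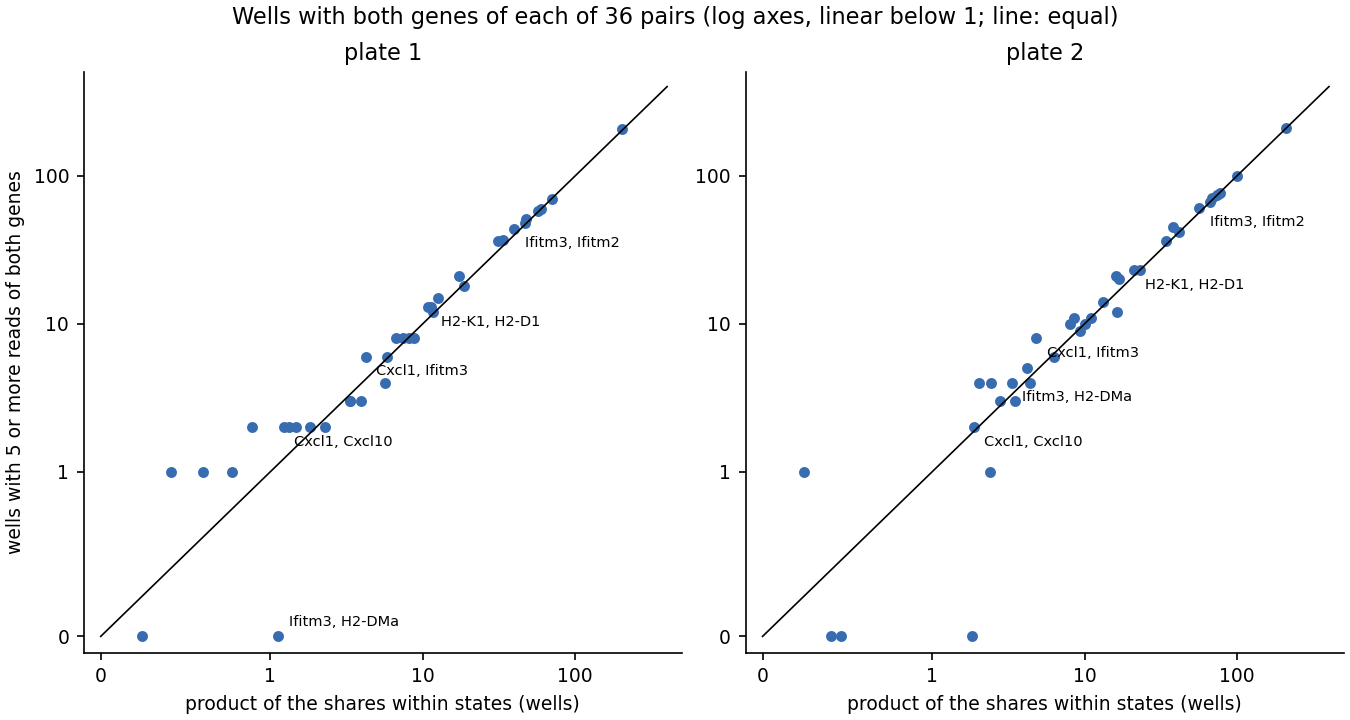
Wells with 5 or more reads of both genes of a pair (y axis) against the product of their shares within states (x axis), for 36 pairs in each plate, on log axes that are linear below 1; the line marks equal values. Points lie close to the line, and Ifitm3 with Cxcl1 lies above it in both plates (6 and 8 wells).

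Genes whose level was most like that of a member over wells were sought among those with 5 or more reads in at least 5% of wells, by the smaller Spearman rho of the plates. These are descriptions over 325 and 330 wells that share depth and state. For H2-DMa they were 1700066B19Rik, Ecscr, Drp2, Chst2 and Ddn (0.53 to 0.58). Drp2 is in the list of markers of myelinating Schwann cells. Ecscr and the others were in no marker list, so the cell types they mark were not read. For Ifitm3 they were Ptn, a secreted growth factor, Arpc1b, Entpd2, Hmgb1 and Postn (0.41 to 0.43). B2m was nearest to Lgals1, Entpd2, Cfl1, Fxyd1 and Dbi (0.31 to 0.35). Ifitm2 was nearest to Gm45717 (0.99), Gm20390 and Col3a1, a collagen gene in the fibroblast-like list (0.30). H2-D1 was nearest to H2-Q1 (0.82) and Cxcl10 to Fam129a (0.31). Cxcl1, Isg15 and H2-K1 had no gene at 0.3 or above.

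The rest of each pathway was read from lists. Of the 34 listed chemokines, 8 besides Cxcl1 and Cxcl10 could be tested. None passed in any of the 4 edgeR comparisons, with 0 to 2 at an unadjusted p under 0.05, and DESeq2 called Cxcl12 in 2 of them. Cxcl14, at 48.6 and 75.3 CPM, was highest in intermediate wells, and Cxcl11, typed as a polymorphic pseudogene in the annotation, was highest in myelinating wells (24.2 and 17.7 CPM). Cxcl11 also lies inside Art3, and it met Cxcl10 in 2 wells. Cxcr3, the receptor of Cxcl10, had 0 reads, and Cxcr2, the main receptor of Cxcl1, reached 5 reads in no well. Among 5 tested receptors Ackr1, a scavenging chemokine receptor, was higher in myelinating wells (25.3 and 19.7 CPM) than in immature wells (0 reads; edgeR adjusted p 0.0115, and 0.0638 with the Pmp22 limit at 20000 CPM). In intermediate wells it was at 3.88 and 1.44 CPM (edgeR adjusted p 0.0495). That call was lost under 8 of 13 alternatives, with 0.103 for the plate as a block and up to 0.260 with the Pmp22 limit at 20000 CPM. Ackr1 overlaps Cadm3 on the same strand, and the part of Cadm3 reads in its values was not tested.

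Of the listed interferons, Ifnk was found in 4 wells and reached 1.23 CPM in the summed reads. The others, Ifnb1, Ifna1, Ifna2, Ifna4, Ifne, Ifng, Ifnl2 and Ifnl3, had 0 reads. Receptor genes were present, with Ifnar2 in 201, Ifngr1 in 215 and Ifngr2 in 258 wells. Of 20 tested genes of receptors and signalling, 2 were lower in myelinating than in immature wells, against 2.54% of all genes. Irf1, an interferon-responsive factor, was at 343 and 344 CPM in immature and 17.3 and 14.6 in myelinating wells (edgeR adjusted p 0.0103, and 0.267 with the Pmp22 limit at 20000 CPM). Irf8 was at 18 and 15.3 CPM in immature wells and had 0 reads in myelinating ones (adjusted p 0.0277, and 0.0670 with the plate as a block). Socs3, which restrains such signals, was at 207 and 214 CPM in immature and 96.4 and 75.6 in myelinating wells and did not pass (adjusted p 0.202). The median of the 20 was -0.31 on the log2 scale, against -0.04 for all genes.

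Of 31 tested interferon-induced genes besides Isg15, 28 were below 0 from immature to myelinating wells, and 2 passed. The median of the 31 was -2.81 on the log2 scale, against -0.04 for all genes. The filter on low genes keeps a gene with reads in a single state, so a gene near 0 in myelinating wells entered through other states. Both the count below 0 and the median carry that choice. Both genes that passed were lower, 6.45% of the list, against 2.54% of all genes as lower and 5.14% in either direction. Those 2 were Ube2l6, the conjugating enzyme for Isg15 (53.6 and 53.8 CPM in immature, 1.24 and 1.42 in myelinating wells, adjusted p 0.00123), and Parp14 (40.8 and 67.8 against 1.31 and 1.57, adjusted p 0.0163). Ube2l6 also passed from intermediate to myelinating wells (adjusted p 0.0463, and 0.0847 with the plate as a block). From immature to myelinating wells 10 of the 31 had an unadjusted edgeR p under 0.05, against 16.3% of all genes. DESeq2 called 6 there, Ifi35 among them. The most abundant of the list were Ifi27 (96.2 and 121 CPM in immature, 55.1 and 17.8 in myelinating wells), Ifi35 (95.5 and 81.6 against 15.7 and 31.0) and Bst2, a tether of budding viruses (73.8 and 48.2 against 13.4 and 19.2). They did not pass with edgeR (adjusted p 0.292, 0.0849 and 0.258). Of the 51 listed genes 11 had no read, among them Mx1, Oas1a and Rsad2, and Ifit1 reached 5 reads in 1 well. Other well-known targets were present in some cells. Ifit2 was found in 23 wells, at 17.8 and 29.1 CPM in cycling, 17.6 and 14 in immature, 9.85 and 0 in intermediate, and 0.234 and 3.60 in myelinating wells. Usp18 was found in 17 wells and Irf7 in 13, at up to 20 and 16.9 CPM in the 8 sums. Besides Ifitm3 and Ifitm2, 1 gene of the Ifitm family could be tested, Ifitm7, and it passed in 0 comparisons with edgeR, at an unadjusted p under 0.05 or with DESeq2. The same held for the 7 tested sensors of nucleic acids and bacteria, apart from 1 unadjusted p under 0.05 between cycling and immature wells.

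For MHC class I and its loading, 21 genes besides the members were tested, and 20 were below 0 from immature to myelinating wells. The median was -2.05 on the log2 scale, against -0.04 for all genes. The filter on low genes bears on this count and this median as above. Among them 3 passed, all as lower (14.3%, against 2.54% of all genes as lower and 5.14% in either direction). Psmb8, a subunit of the immunoproteasome, was at 37.1 and 36.2 CPM in immature and 0.0203 and 0 in myelinating wells (edgeR adjusted p 0.0314). Psme1, of its activator, was at 217 and 194 against 34.6 and 53.2 (adjusted p 0.0128). Tap2, of the peptide transporter, was at 15.2 and 33.7 against 0.0812 and 0.699 (adjusted p 0.0456, 0.0780 with the plate as a block and 0.158 without the wells with fibroblast-like markers). From immature to intermediate wells 20 of 21 were also below 0, and 0 passed in edgeR. There 4 had an unadjusted p under 0.05, and DESeq2 called 3. The chaperones Pdia3, at 508 to 1045 CPM in the 8 sums, and Canx, at 441 to 717 CPM, did not pass in either comparison with edgeR (adjusted p from 0.110 to 0.953). Canx was on the positive side. From immature to myelinating wells 9 of the 21 had an unadjusted edgeR p under 0.05, and DESeq2 called 7, Canx among them. H2-D1, Psmb8, Psme1 and Tap2 thus fell in the same comparison, in which B2m and H2-K1 did not pass.

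Of 16 tested NF-kB pathway genes 0 passed in any edgeR comparison, with at most 3 at an unadjusted p under 0.05 and at most 3 called by DESeq2. Nfkbia was at 163 and 165 CPM in immature and 76.3 and 81.9 in myelinating wells (log2 -0.67, adjusted p 0.326), and Nfkbib at 69.1 and 97.2 against 161 and 151 CPM (log2 1.29, adjusted p 0.119). Both encode inhibitors of NF-kB. Nfkbib overlaps Ccer2 and Sirt2 on the other strand, and the part of their reads in its values was not tested. Immediate-early genes, which dissociation of tissue is known to raise, were lower in the same states as Ifitm3. Of 15 tested, 6 were lower in intermediate and 5 in myelinating than in immature wells, against 1.01% and 2.54% of all genes, and 0 were higher. Egr1 was at 750 and 812 CPM in immature, 184 and 238 in intermediate, and 132 and 90.3 in myelinating wells (edgeR adjusted p 0.00502 and 0.000372 against immature wells). Jun was at 868 and 1234 CPM in immature and 148 and 64.8 in myelinating wells (adjusted p 0.00466), and Ier2 at 415 and 404 against 50.3 and 16.9 (adjusted p 0.00415). Their part in the values of the 9 genes was not tested. Fos was at 7093 and 7153 CPM in immature wells and at 3462 and 3421 CPM in myelinating wells, and that difference did not pass (log2 -0.67, adjusted p 0.0686).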

How the data were processed

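The authors deposited raw read counts per gene and well, with no molecular identifiers, made with STAR and featureCounts. The submitters' processing notes name STAR 2.6.1c and the mouse build GRCm38.p5, whereas the study's methods name a human build, so the coordinates given (GENCODE vM21, GRCm38) may not be those used in counting. Of 25700 identifiers 25587 matched that annotation, and the 113 others held 0.0916% of reads. The 2 plates held 226050990 and 203322077 reads, and single wells from 169 to 2495101. Intervals on shares are exact (95%) and cover counting error only, as do limits for a count of 0, set at 3 counts.

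Reads were summed by plate and state and tested with edgeR 4.0.16 (R 4.3.3), with TMM scaling, filterByExpr and the quasi-likelihood test, after a check on simulated data. The simulated spread was smaller than the common dispersion of 0.713 fitted to these sums. That check therefore cannot give error rates at the spread of these data. DESeq2 1.42.0 was an alternative, and the others were its size factors in edgeR, no filter on low genes, other limits for states, genes per well and reads, thinned wells, omitted plate columns, kept corner wells and the plate as a block. Leaving out wells with fibroblast-like markers was chosen after seeing the data. The same pool gave all states of a plate, so plates pair the sums. Deviations of the states from their means correlated between -0.0106 and 0.124 over 1990 genes with 100 CPM or more. The genes and lists were chosen with earlier results of these data known. From each list, genes were named by rule as the 4 with the highest mean CPM and, of genes that passed with a mean of 10 CPM or more and the same direction in both plates, the 2 with the largest change per direction and comparison. Their values are given for those the results turn on. Other genes, such as Irf8, Psme1 and Ciita, were named after their values were seen. No doublet caller was run. Shares, sequences and figures were made with Python 3.11.15, numpy 2.4.6, pandas 2.3.3, scipy 1.17.1, biopython 1.88 and matplotlib 3.10.9.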

Additional observations from a re-analysis of the deposited data

Results flagged for a closer look

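Wells outside the comparisons held B2m. Of the 105 wells that failed the minimum of 1500 genes outside the plate corners, 19 had 5 or more reads of B2m and 49 had at least 1, at 754 CPM of their summed reads. The other 8 genes reached 5 reads in at most 3 of those wells. In the 8 corner wells B2m had 1 read in 1 well, and none of the 9 genes reached 5 reads.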

How the results depend on the processing

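The 6 tested genes gave 24 values in 4 comparisons, each recomputed under 13 alternatives, 312 values in all. The 5 values past the threshold kept direction and call under all 13. Of the others, 4 passed newly, all from immature to intermediate wells: Ifitm2 and H2-D1 with DESeq2 (adjusted p 0.0368 and 0.0315), and H2-K1 and H2-D1 with every gene with 1 read tested (0.0442 and 0.0172). Another 4 turned in sign and passed in no setting: Isg15 from immature to myelinating wells (0.107) and H2-K1 from intermediate to myelinating wells (-0.0852) in thinned wells, and B2m between cycling and immature wells (0.0468 with DESeq2's size factors in edgeR and 0.0467 with DESeq2). The cause was not tested. Counts of all genes called, 278, 715, 109 and 359 from immature to intermediate, immature to myelinating, intermediate to myelinating and immature to cycling wells, rose to 936, 1513, 647 and 1357 with DESeq2 and to 692, 1197, 435 and 848 with every gene with 1 read. With the plate as a replicate block, pairing the sums, they were 258, 676, 96 and 277, and no call of the 6 genes changed. Apart from the pathway list genes given with a blocked p above, Dusp1 lost its call from immature to intermediate wells (edgeR adjusted p 0.0587). The endothelial marker Kdr also lost its call from immature to myelinating wells. With the Pmp22 limit at 20000 CPM, Fos, Dusp1, Zfp36 and Ackr1 lost their calls from immature to intermediate wells. Irf1, Ackr1 and Tap2 lost theirs from immature to myelinating wells, and Ube2l6 from intermediate to myelinating wells. The median share over the 9 genes, 20.5%, was 17.8% to 22.4% with either plate left out. A single plate leaves no residual degrees of freedom, so its differences are values with no test. Of 45 mean levels, 12 moved by more than 1 SD of the plates when CPM was averaged over wells. The median of all genes between cycling and immature wells was -0.13 with TMM and -0.05 with DESeq2's size factors. With 2 plates and 57 cycling wells, differences of the rare genes Cxcl1, Cxcl10 and Isg15 rest on few cells.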
